A study of Mus musculus with 50 samples.

Results

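The 34 genes described here are the fatty acid oxidation and fasting-response genes of mouse liver listed in the rule that defines the set, all of which had values in the table of 12180 genes. They were chosen by name and known function and not by a cut on their values, but with earlier results of these data known. Of these 34 members, 2 are regulators, 4 take up or activate fatty acids, 3 form the carnitine shuttle, 8 act in mitochondrial oxidation, 6 belong to the peroxisome, 3 are thioesterases, 2 coat lipid droplets, 4 encode secreted, membrane-bound or fuel-switch proteins of the fasting response, and 2 act on ketone bodies or aldehydes. All 34 had a mean above 1 normalized CPM and entered the tests, which covered 11431 genes.

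During a fast, adipose tissue releases fatty acids, and the liver burns them in mitochondria and peroxisomes and turns part of the product into ketone bodies. PPAR-alpha, the nuclear receptor encoded by Ppara, senses fatty acids, pairs with the retinoid X receptor and switches on many genes of this program. Cyp4a14, a fatty acid hydroxylase of the endoplasmic reticulum, is a well-known target of the receptor and served here as a comparison gene outside the set.

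RNA from liver was sequenced in 50 libraries of a single group, male N2 backcross mice with A/J and C57BL/6J alleles segregating on chromosomes 4 and 6 and a C57BL/6J background elsewhere. The mice were 5 weeks old, were fasted overnight and were anaesthetized with isoflurane. The labels call them adult and F2, and the age and the N2 generation come from the methods. There was no fed, untreated or PPAR-alpha-deficient group, and genotypes were not used here, so the design asks how far the program varied among fasted mice of 1 cross and what it varied with. Reads assigned to genes numbered 9430126 to 24355042 a library (median 10791083), and 3 reads corresponded to 0.0951 to 0.259 normalized CPM. Normalized CPM is reads divided by a library size, on the scale of CPM, that the authors scaled between libraries. The 50 libraries carried 48 animal numbers, because 2 numbers stood on 2 libraries each. Nothing else in the labels ties libraries to litters, cages or days, so p-values measure only the spread between these samples.

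The hepatocyte markers Alb, Apoa1, Ttr, Hnf4a, Serpina1a and Cps1 summed to 72489 to 119271 normalized CPM per liver. The sums were 234 to 414 for 7 Kupffer cell markers, 147 to 225 for 5 endothelial markers, 90.5 to 220.7 for 5 stellate cell markers, 16.99 to 41.8 for the 4 bile duct markers measured of 5 listed, and 0.562 to 3.17 for the 2 lymphocyte markers measured of 5 listed. None of the 5 adipocyte markers listed had values in the table used here. The 5 erythroid markers summed to 94.7 to 302. In bulk RNA of this kind, fewer cells of a type and less RNA per cell cannot be told apart.

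The receptor binds DNA with its partner at a direct repeat of 2 copies of AGGTCA spaced by 1 base. This repeat was searched on both strands in the RefSeq promoter windows of build GRCm38.p6, which run from 250 bases before to 50 bases after a gene start, with at most 2 mismatches in the 12 fixed bases. Of the members, 29 had a window, and 6 of these (20.7%) held a match, beside 1190 of all 27025 genes with a window (4.40%). The 6 matches are shown because the receptor is known to bind such repeats, and they describe the sequence, not binding. Capitals mark the repeat, and each stretch reads 5′ to 3′ on the strand of the gene.
Fabp1, chr6:71199769-71199868, plus strand: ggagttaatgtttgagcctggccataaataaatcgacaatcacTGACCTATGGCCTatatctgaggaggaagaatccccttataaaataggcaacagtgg
Acot4, chr12:84038279-84038378, plus strand: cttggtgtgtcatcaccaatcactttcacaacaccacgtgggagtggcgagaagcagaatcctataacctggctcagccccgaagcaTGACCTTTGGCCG
Cd36, chr5:17835903-17836002, minus strand: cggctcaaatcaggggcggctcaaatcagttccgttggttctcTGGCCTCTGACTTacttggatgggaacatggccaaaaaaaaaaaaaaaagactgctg
Creb3l3, chr10:81092742-81092841, minus strand: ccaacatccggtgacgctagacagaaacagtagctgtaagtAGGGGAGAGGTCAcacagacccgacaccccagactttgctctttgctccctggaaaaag
Plin2, chr4:86670210-86670309, minus strand: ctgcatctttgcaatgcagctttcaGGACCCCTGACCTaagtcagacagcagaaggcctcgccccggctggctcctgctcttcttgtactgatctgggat
Slc25a20, chr9:108662134-108662162, plus strand: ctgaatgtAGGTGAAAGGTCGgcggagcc

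In Fabp1, Acot4, Cd36 and Plin2 the repeat stood on the opposite strand, so the capitals show its reverse complement. Fabp1 had 1 mismatch and the other 5 members had 2. The copy in Slc25a20 lay just after the gene start. The windows shown for Creb3l3 and Cd36 stand at starts inside the annotated genes, which span chr10:81084324-81098874 and chr5:17781690-17888801. The other window of Creb3l3, chr10:81098823-81099122 at the annotated 5′ end of the gene, held no match. A single copy of AGGTCA without mismatch was found in the windows of 9 members (31.03%) and of 18.1% of all genes with a window, and in Fabp1, Acot4, Creb3l3 and Plin2 that copy is part of the repeat shown. The window of Ehhadh, the member with the highest Pearson correlation with Cyp4a14, held no match, which says only that these letters are not in that window.

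Ppara (chr15:85734983-85802819, build GRCm38) ranged from 38.8 normalized CPM in the lowest liver to 122 in the highest, with a median of 82.1 and a mean of 84.5 ± 17.7 (SD, n = 50). Its coefficient of variation of 20.9% stood at the 85.5th percentile of the 200 genes nearest in mean level. Creb3l3, a membrane-bound liver transcription factor that works together with the receptor in fasting, ranged from 231 over a median of 275 to 362 (mean 280 ± 26.7). The receptor was the more variable of these 2 regulators.

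The fatty acid binding protein gene Fabp1 (chr6:71199827-71205023) had the highest level of the set per length of transcript, 1889 ± 520 normalized CPM per kb, and ranged from 323 over a median of 1007 to 1846 normalized CPM (mean 1044 ± 287). The very long chain acyl-CoA synthetase gene Slc27a2 ran from 1319 over 1767 to 2099 (mean 1744 ± 167). The long-chain acyl-CoA synthetase gene Acsl1 ran from 639 over 1189 to 1533 (mean 1178 ± 193). The fatty acid translocase gene Cd36 was much lower, from 20.1 over 35.8 to 89.4 (mean 40.4 ± 14.2). Fabp1 and Cd36 spread widely over the livers, with coefficients of variation of 27.5% and 35.1%, while Slc27a2 spread by 9.59%.

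The carnitine shuttle carries long-chain fatty acids into mitochondria. Cpt1a, which encodes its rate-limiting outer-membrane enzyme, ran from 395 over 578 to 868 normalized CPM (mean 583 ± 99.8). Cpt2, the inner-membrane enzyme, ran from 129 over 154 to 190 (mean 155 ± 13.96), and the carrier gene Slc25a20 from 90.1 over 120.65 to 145 (mean 120.6 ± 11.1). Cpt1a spread by 17.1%, against 9.03% for Cpt2 and 9.18% for Slc25a20.

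The 8 genes of mitochondrial oxidation were the steadiest group, with coefficients of variation from 7.87% (Etfdh) to 11.9% (Acadm). Among the acyl-CoA dehydrogenases, Acadvl (very long chains) ran from 366 over 423 to 535 normalized CPM (mean 427 ± 34.2). Acadl (long chains) ran from 156 over 214 to 273 (mean 214 ± 24.5), and Acadm (medium chains) from 352 over 440 to 603 (mean 445 ± 53.0). The trifunctional protein subunits lie head to head on chromosome 5. Hadha ran from 234 over 323 to 383 (mean 320 ± 32.96) and Hadhb from 185.9 over 247 to 328 (mean 247 ± 26.9). The thiolase gene Acaa2 ran from 519 over 614 to 780 (mean 618 ± 51.9). Decr1, the reductase needed for unsaturated fatty acids, ran from 146 over 202 to 263 (mean 201 ± 23.2). Etfdh, which passes electrons from the dehydrogenases to the respiratory chain, ran from 305 over 379 to 427 (mean 375 ± 29.5), so its highest liver stood little above its median.

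Peroxisomes shorten very long chains before the mitochondria finish them. Ehhadh (chr16:21761287-21787807), the peroxisomal bifunctional enzyme, was the most variable of the 6 peroxisomal members, from 525 over 1042 to 1992 normalized CPM (mean 1031 ± 280). Of the thiolases, Acaa1b ran from 469 over 958 to 1311 (mean 969 ± 184) and Acaa1a from 132 over 189 to 253.8 (mean 191.2 ± 26.8). These 2 share sequence: 40.01% of the 31-base stretches of the Acaa1b transcripts also occur in Acaa1a. Reads without a unique alignment were tallied apart (11.6% of all reads) and not counted for any gene, so both levels may be too low. Hsd17b4, another bifunctional enzyme, ran from 317 over 430 to 510 (mean 426 ± 45.5). The reductase gene Decr2 ran from 154 over 199 to 235 (mean 201 ± 18.9). Pex11a, which acts in peroxisome division, ran from 42.4 over 71.0 to 97.7 (mean 71.0 ± 13.9).

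The thioesterases, which release free fatty acids from acyl-CoA, lie together on chromosome 12. The cytosolic Acot1 ran from 18.9 over 48.6 to 113 normalized CPM (mean 50.3 ± 16.2). The mitochondrial Acot2 ran from 3.02 over 5.53 to 17.4 (mean 6.13 ± 2.64), and the peroxisomal Acot4 from 20.95 over 40.7 to 76.4 (mean 42.01 ± 11.5). Of the 31-base stretches of Acot2, 37.3% also occur in other genes, 29.9% in Acot1. Reads without a unique alignment were not counted, so the levels of these neighbours may be too low. All 3 stood at or above the 96th percentile of spread among genes of like level.

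On lipid droplets, Plin2, a coat protein whose gene lies on chromosome 4, ran from 198.4 over 354 to 833 normalized CPM (mean 362 ± 111). Cidec (chr6:113424634-113435760), which promotes fusion of droplets, ran from 1.11 over 5.21 to 57.1 (mean 7.09 ± 8.11). Its coefficient of variation of 114.5% was the largest of the set. A single liver, numbered 15, stood at 57.1, and the next reached 15.1. Without that liver the coefficient of variation of Cidec was 61.6%.

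Among the genes of the fasting response, Fgf21, which encodes a fasting hormone, ran from 0.241 over 1.70 to 8.59 normalized CPM (mean 2.33 ± 1.89, 3 to 150 reads). Its lowest value is that of 3 reads, so the bottom of this range is at the detection floor. Angptl4, a secreted inhibitor of lipoprotein lipase, ran from 72.7 over 151 to 220 (mean 150 ± 41.1). Vnn1, a membrane-bound pantetheinase, ran from 21.3 over 58.8 to 97.1 (mean 58.8 ± 17.1). Pdk4 (chr6:5483351-5496309), which spares glucose by blocking pyruvate dehydrogenase, ran from 3.11 over 8.17 to 46.4 (mean 8.63 ± 6.10), and its highest value was again that of liver 15, with the next at 17.9. The coefficient of variation of Pdk4 was 70.6% with that liver and 35.1% without it. Cidec, Fgf21 and Pdk4 each varied more than all of the 200 genes nearest in level when all livers were kept.

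Bdh1, the mitochondrial enzyme that interconverts the main ketone bodies, ran from 71.3 over 162 to 253 normalized CPM (mean 166 ± 34.2). Aldh3a2, a fatty aldehyde dehydrogenase, ran from 99.9 over 247 to 361 (mean 243.5 ± 49.7). Both had a similar spread, 20.6% and 20.4% of the mean.

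**Figure D1:**
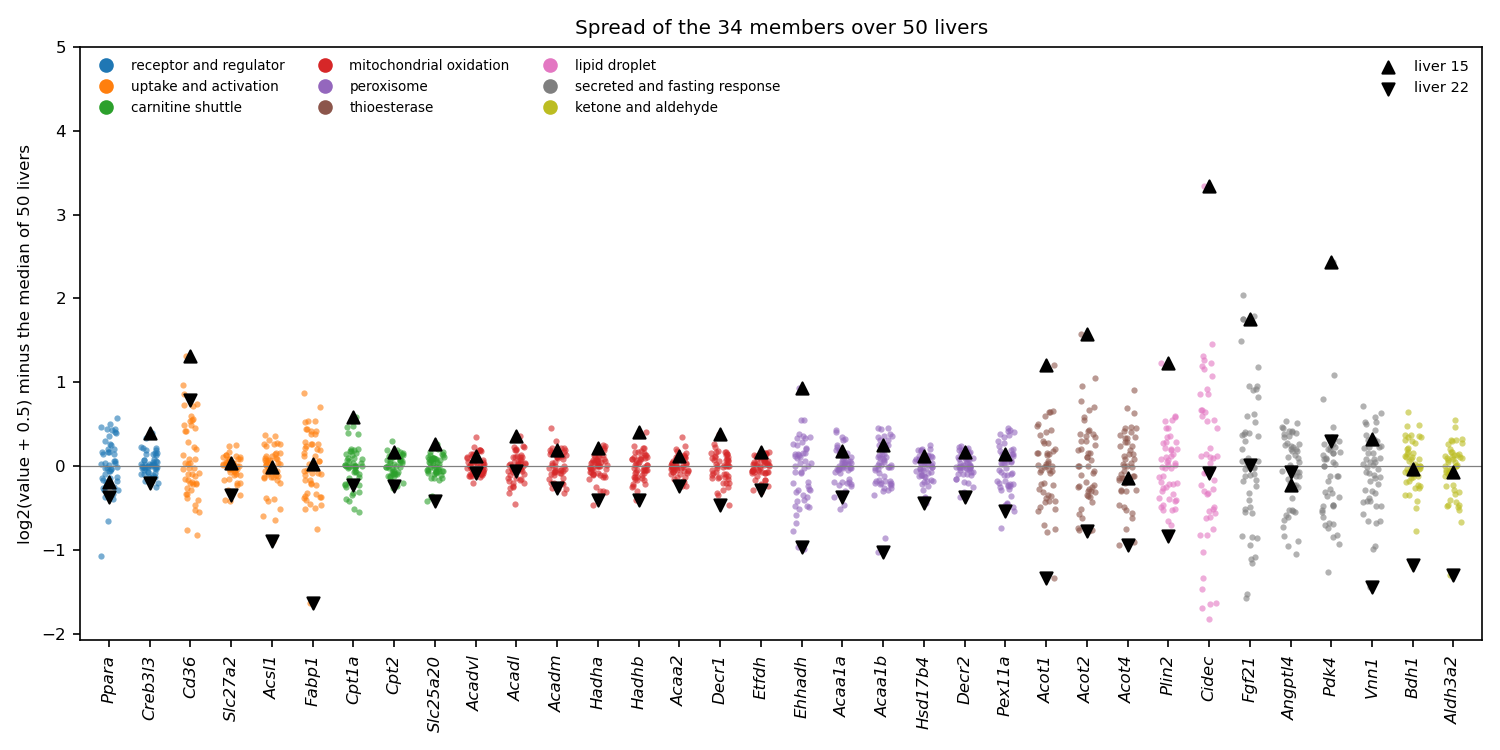
Each dot is 1 of 50 livers, plotted as log2(value + 0.5) minus the member's median over the livers, for the 34 members in order of role (colours). Black triangles mark liver 15, at the top in 14 members, and inverted triangles liver 22, at the bottom in 15 members, while Cidec, Fgf21 and Pdk4 show the widest ranges and the mitochondrial oxidation genes the narrowest.

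Per kb of transcript the order of mean levels ran from Fabp1 at 1889 through Slc27a2 at 598, Acaa1b at 574, Acaa2 at 408 and Ehhadh at 346 down to Acot2 at 2.79, Pdk4 at 2.48 and Fgf21 at 2.45 normalized CPM per kb. Fabp1 stood apart from Slc27a2 by more than the larger SD of the pair, and so did Acaa1b from Acaa2 and Acsl1 (302) from Acadm (217.4). Slc27a2 and Acaa1b did not differ beyond their spread, nor did any neighbours in the run from Acadm down to Acaa1a. The 4 lowest members, Cidec, Acot2, Pdk4 and Fgf21, did not differ from their neighbours by that measure. Members with shared stretches, such as Acaa1b, Acot2 and Hadhb, may stand too low in this order, because the length used included those stretches.

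The Poisson error of the counted reads accounted for 0.0857% of the variance between livers for Fabp1 and for at most 6.67% (Slc25a20), so nearly all of the spread of each member lay above counting error. This error covers counting only, because copies of a fragment made by PCR are not independent molecules. The median coefficient of variation was 18.03% over the 34 members and 16.5% over the 11431 genes tested. Of the members, 8 exceeded the 95th percentile of genes of like level. Only chromosomes 4 and 6 segregated in the cross, and 6 members lie there, namely Cpt2, Plin2 and Decr1 on chromosome 4 and Fabp1, Pdk4 and Cidec on chromosome 6. Their median coefficient of variation was 29.03%, beside 16.8% for the other 28 members, and both groups overlapped, from 9.03% to 114.5% and from 7.87% to 81.2%. No test was made of this difference, and the alleles that each mouse carried were not used here.

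The livers at the extremes were often the same ones. Liver 15 was the highest of 50 for 14 members, among them Ehhadh (1992 normalized CPM, next 1527), Acot1 (113, next 76.8), Plin2 (833, next 534) and the Cidec and Pdk4 values above. It was not high for Ppara (71.7), Fabp1 (1026), Bdh1 (159) or Aldh3a2 (235), each of which lay close to or below its median. Liver 22 was the lowest of 50 for 15 members and was among the 5 lowest for 26 of 34. There Fabp1 stood at 323, Acot1 at 18.9, Vnn1 at 21.3 and Bdh1 at 71.3. Yet the same liver had high Cd36 (62.1) and Pdk4 (10.2), and the highest Igfbp1 of all livers (768). The library shares its animal number with library 55, in which no member was among the 5 lowest or the 5 highest. The depths of livers 15 and 22 were 11054728 and 11124873 reads, near the median. The summed erythroid markers were 302 in liver 15 and 292.5 in liver 22, the highest sums of the 50. Liver 22 also had a share of 23.1% of reads in the 10 highest genes and a stellate marker sum of 217.8, each second among the livers. In liver 15 these were 22.4% and 189.2, and 18.4% of its reads were unassigned, beside a median of 21.6%. The part of these measures in the members' values was not tested.

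Many members varied together across the livers. Over the 561 pairs of members, the median Pearson correlation of log2(value + 0.5) across the 50 livers was 0.388, and 184 pairs (32.8%) exceeded 0.5. Over all 65328165 pairs of tested genes the median was -0.002 and 2.17% exceeded 0.5. These are descriptions without a test, and the points of every pair are the same 50 libraries. Among the members, 53 pairs were negative. The median was 0.370 without liver 15, 0.346 without liver 22, and 0.412 after the set of library numbers, reads per library and the share of the 10 highest genes had been removed by regression.

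**Figure D2:**
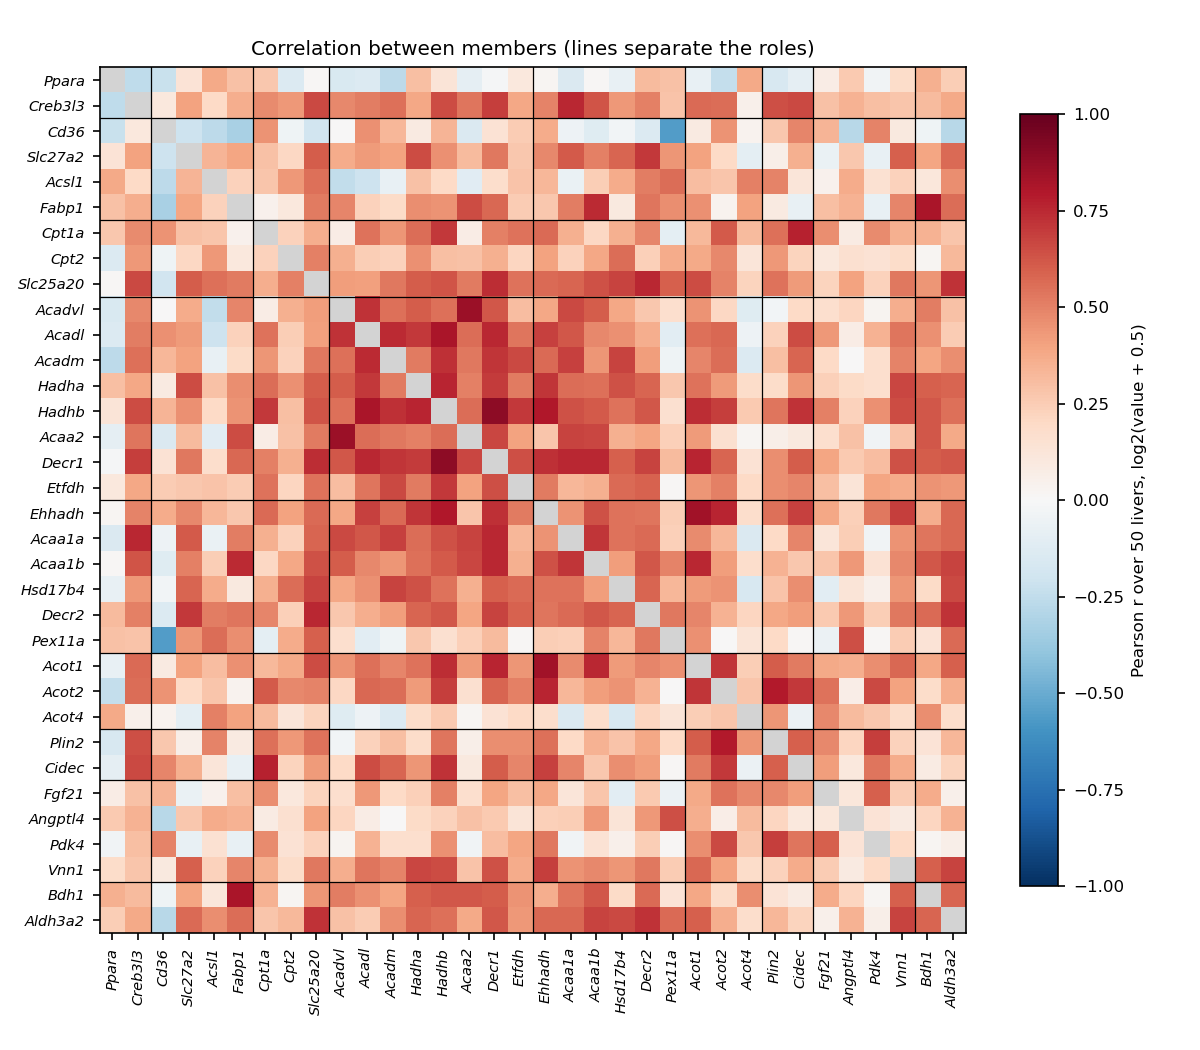
Heat map of Pearson correlations over 50 livers between the 34 members, on log2(value + 0.5), ordered by role with lines between roles and the diagonal in grey. The block of mitochondrial oxidation is red throughout (median 0.65). The row of Ppara is mostly pale (median 0.01), and that of Cd36 holds both red and blue cells (median 0.03).

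The tightest group was mitochondrial oxidation, where the 28 pairs had a median correlation of 0.65 and ranged from 0.31 to 0.89. Peroxisomal members reached a median of 0.53 among themselves and 0.55 with the mitochondrial ones. The 6 pairs of uptake and activation genes had a median of 0.01. The 5 closest pairs were Hadhb with Decr1 (0.89), Acadvl with Acaa2 (0.85), Ehhadh with Acot1 (0.84), Fabp1 with Bdh1 (0.82) and Acadl with Hadhb (0.81). Each of these kept a correlation of at least 0.74 without liver 15 or without liver 22, and of at least 0.778 within either set of library numbers described below. The counts of Hadhb may be too low, because 23.3% of its 31-base stretches also occur in other genes and reads without a unique alignment were not counted. The closest gene outside the set was Eci1 for Decr1 (0.85, second to Hadhb) and Pgm3 for Cidec (0.88). No function is read from this likeness.

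Cd36 and Ppara were the exceptions. Cd36 gave the 3 most negative pairs, with Pex11a (-0.56), Fabp1 (-0.32) and Angptl4 (-0.28), and its median correlation with the other 33 members was 0.03. Of its 33 correlations 15 were negative, and the highest were with Pdk4 (0.49), Cidec (0.49), Acadl (0.45) and Cpt1a (0.45). Its closest gene was Lpl, which encodes lipoprotein lipase (0.81). The median correlation of Ppara with the other 33 members was 0.01, the lowest of the set, and 15 of its 33 correlations were negative. At the other end, Hadhb had a median of 0.62 with the other members and no negative correlation.

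The level of Ppara was then tested as a predictor of every other gene, to ask whether members were higher where the messenger of the receptor was higher. Slopes were fitted with limma on log2(value + 0.5) across all 50 livers, with Benjamini-Hochberg adjustment over all genes and a threshold of 0.05, and genes passing it are counted as called. Of the 33 other members, 3 rose with Ppara and none fell. Of all 11430 genes tested, 32.3% were called, and 16.2% rose, so the share among members (9.09%) was below the background. The median slope over the members was 0.01 and over all genes -0.02.

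Acot4 rose by 0.48 ± 0.16 (SE) log2 units per log2 unit of Ppara (adjusted p = 0.021, limma). Acsl1 rose by 0.31 ± 0.11 (adjusted p = 0.0251, limma) and Bdh1 by 0.36 ± 0.13 (adjusted p = 0.0324, limma). For Acot4, Pearson's r was 0.38 (permutation p = 0.00646, 2-sided, n = 50) and Spearman's rho 0.36 (permutation p = 0.011). The r of Acot4 was 0.39 without the 2 livers farthest from the median of Ppara, and 0.38 and 0.36 within the sets of libraries numbered 1 to 30 and 31 to 59. For Acsl1, r was 0.38 but rho was 0.19 (permutation p = 0.183), and r was 0.28 without the 2 farthest livers. Its call was lost without those livers and with the set, the 10 highest genes or the unassigned reads as a covariate, with slopes from 0.24 to 0.34 in all settings tried. For Bdh1, r was 0.36, rho 0.41, and r 0.51 without the 2 farthest livers, but without liver 22 its slope was 0.28 (adjusted p = 0.0637, limma).

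Once the fit included the percentage of reads in the 10 highest genes, 1 member (Cpt1a) was called and the 3 above were not, beside 23.2% of all genes called. In the 46 libraries whose animal number stood on no other library, 1 of the 3 (Acsl1) was called, beside 32.8% of all genes. Ehhadh had an r of 0.02 with Ppara (permutation p = 0.911) and Cidec of -0.09 (permutation p = 0.517). A p that misses the threshold does not show that there was no relation. Acadm had an r of -0.26 and was not called. Fabp1 had an r of 0.29 and a rho of 0.36 (permutation p = 0.0423 and 0.0108) and was not called with all livers. Its r was 0.48 without the 2 livers farthest from the median of Ppara, where it was called, as it was once the fit included the set.

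Among 21 listed receptors and coregulators, 8 rose with Ppara and 1 fell. The corepressor gene Ncor1 rose by 0.51 ± 0.08 (adjusted p = 1.65e-06, limma), the coactivator gene Ncoa2 by 0.55 ± 0.08 (adjusted p = 3.01e-06) and Ncoa1 by 0.48 ± 0.09 (adjusted p = 0.000132). The 9 called of 21 are 42.9%, beside 32.3% of all genes. Of 45 other oxidation and ketogenesis enzymes, 3 rose and 8 fell, for example Pex16, a peroxisome assembly factor (-0.38 ± 0.09), and of 37 other receptor and fasting targets, 3 rose and 2 fell. Of 33 sterol and fatty acid synthesis genes, 2 rose and 6 fell. Of 6 hepatocyte markers, Hnf4a rose and Ttr, Alb and Serpina1a fell, and their part in these relations was not tested. Ppara itself had an r of -0.44 with the share of reads in the 10 highest genes (permutation p adjusted over 28 such relations = 0.00488).

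Cyp4a14 (chr4:115486200-115496142), the well-known target, ran from 2402 over 4804 to 7669 normalized CPM (mean 4764 ± 1235, n = 50), and 14 of 34 members rose with it while none fell. Of all genes tested, 12% were called and 6.24% rose. The median slope was 0.18 over the members, of which 30 had a positive slope, and -0.003 over all genes. Ppara was not among the 14, with an r of -0.14 to Cyp4a14 (permutation p = 0.322). Cyp4a14 itself lies on chromosome 4, which segregated in the cross, and the part of alleles there in its level was not tested.

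**Figure D3:**
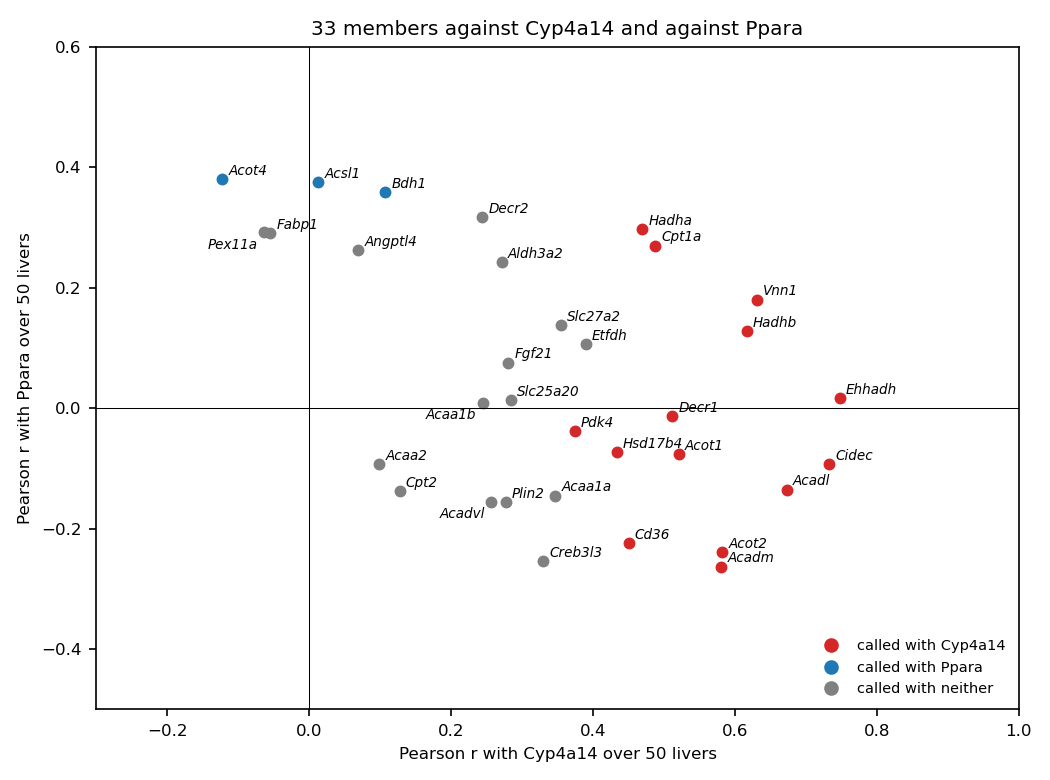
Each point is 1 of 33 members, with its Pearson correlation with Cyp4a14 on the horizontal axis and with Ppara on the vertical axis, over the same 50 livers. The 14 members called with Cyp4a14 (red) lie between 0.37 and 0.75 on the horizontal axis and on both sides of 0 on the vertical axis, and the 3 called with Ppara (blue) lie between -0.12 and 0.11 on the horizontal axis.

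The peroxisomal gene Ehhadh rose by 0.76 ± 0.10 (SE) log2 units per log2 unit of Cyp4a14 (adjusted p = 4.68e-07, limma), which is 1.69-fold. In the 3 livers with the most Cyp4a14, numbered 30, 15 and 49, Ehhadh stood at 1527, 1992 and 1523 normalized CPM, its 3 highest values. Pearson's r was 0.75 and Spearman's rho 0.75 (permutation p = 1e-05 for each, the smallest that 100000 resamples can give). It was 0.77 without the 2 livers farthest from the median of Cyp4a14, and in the lower and higher run of library numbers it was 0.75 and 0.77.

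The droplet gene Cidec rose by 1.85 ± 0.24 (adjusted p = 6.43e-07, limma), 3.61-fold per log2 unit, with an r of 0.73, a rho of 0.78 and within-set values of 0.77 and 0.67. The dehydrogenase gene Acadl rose by 0.29 ± 0.05 (adjusted p = 6.88e-05), with an r of 0.67. Vnn1 rose by 0.73 ± 0.13 (adjusted p = 9.81e-05), with an r of 0.63. Hadhb rose by 0.25 ± 0.05 (adjusted p = 0.000497), with an r of 0.62. For all 5 of these genes r was positive in both sets, from 0.55 to 0.77. The other 9 called were Acot2, Acadm, Acot1, Decr1, Cpt1a, Cd36, Hadha, Hsd17b4 and Pdk4, with slopes from 0.18 (Hsd17b4) to 0.75 (Acot2).

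By role, 5 of 8 mitochondrial oxidation genes rose, namely Acadl, Acadm, Hadha, Hadhb and Decr1, and 2 of 6 peroxisomal genes, Ehhadh and Hsd17b4. Of the 3 thioesterases, Acot1 and Acot2 rose, and of the 4 genes of the fasting response, Vnn1 and Pdk4. Cpt1a was the one gene called of the 3 in the carnitine shuttle, Cd36 of the 4 in uptake and activation, and Cidec of the 2 on lipid droplets. Of the 6 members with a promoter match shown above, Cd36 was called with Cyp4a14, beside 14 of all 34 members. Acot4 was called with Ppara, and Fabp1, Creb3l3, Plin2 and Slc25a20 were called with neither. Decr1, Hsd17b4 and Vnn1 were called with Cyp4a14 but had no promoter window, so no match could be seen in them. No relation between match and call is read from so few genes.

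**Figure D4:**
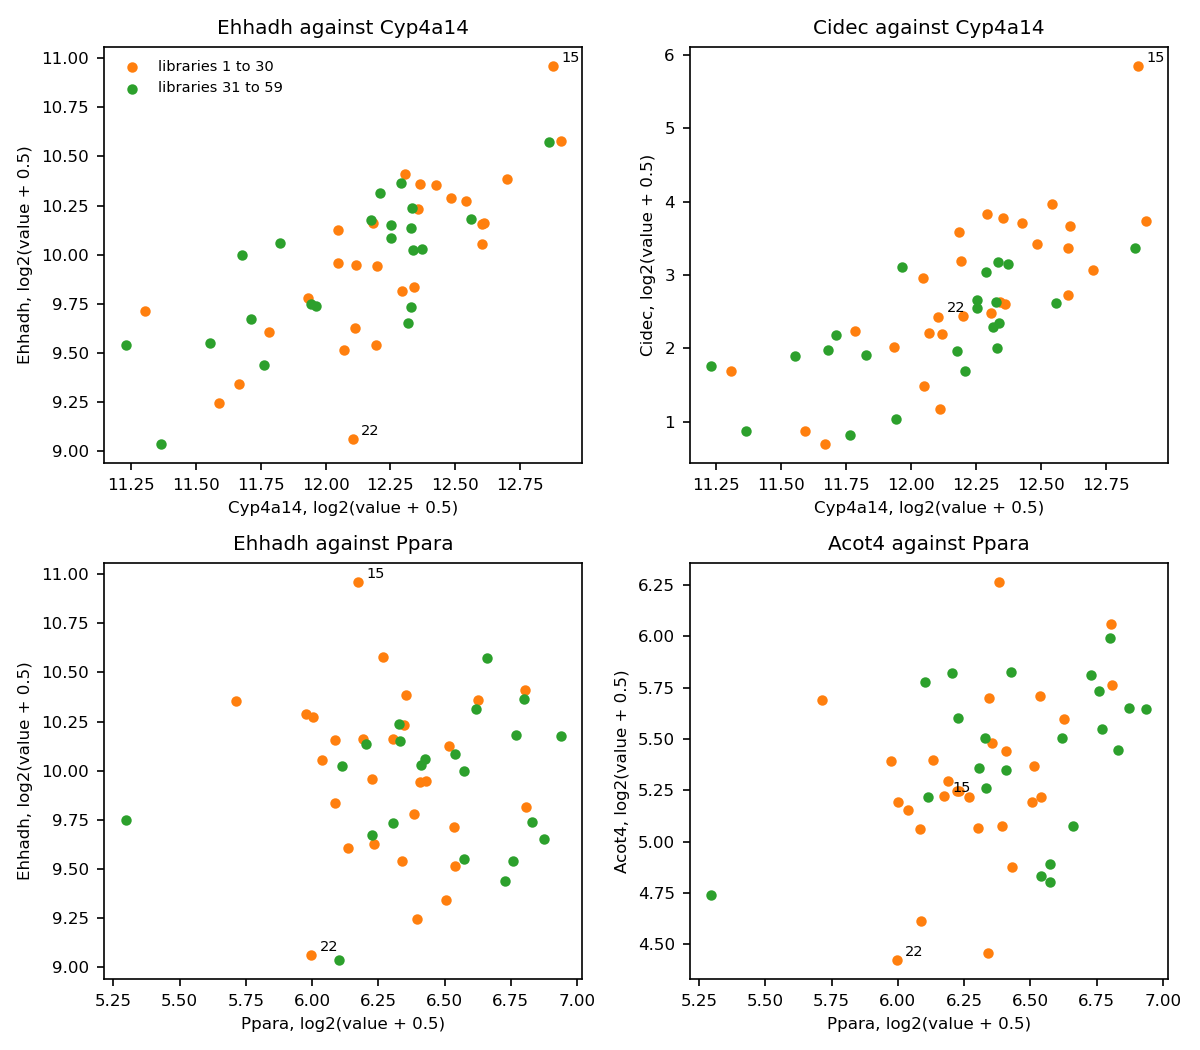
Scatter plots over 50 livers on log2(value + 0.5) of Ehhadh and Cidec against Cyp4a14 (top) and of Ehhadh and Acot4 against Ppara (bottom), coloured by set of library numbers, with livers 15 and 22 labelled. Ehhadh and Cidec climb with Cyp4a14 (r of 0.75 and 0.73), Ehhadh does not line up with Ppara (r of 0.02), and liver 15 lies at the top of both upper panels.

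Measures of library composition moved with Cyp4a14. Its r was 0.56 with the share of reads in the 10 highest genes and -0.43 with the share of reads that had been assigned to no gene (adjusted p over 28 relations 0.00028 and 0.00488, permutation). With the first share as a covariate, 1.41% of all genes and 11 of 34 members were called, and with the second, 2.34% of all genes and 9 members, of which Aldh3a2 was not among the 14. Ehhadh, Cidec, Acadl, Vnn1, Hadhb, Acot1, Acot2 and Decr1 were called in all settings tried, 8 of the 14. The call of Cd36 and of Pdk4 was lost without liver 15, which left 12 members called and 7.62% of all genes. The summed erythroid markers had an r of 0.47 with Cyp4a14, and all 5 of these markers were called with it, 4 higher and Alas2 lower, with Hbb-bs rising by 0.90 ± 0.18, and 2 of 5 stellate cell markers rose (Ecm1 and Dcn). The part of blood and of these cells in the members' relations was not tested.

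Other genes of the program moved with Cyp4a14 in both directions, beside 6.24% of all genes that rose and 5.77% that fell. Of 36 other receptor and fasting targets tested, 10 rose and 1 fell, led by its neighbour Cyp4a10 (0.71 ± 0.07, adjusted p = 6.87e-11, limma), whose sequence resembles that of Cyp4a14, and by Apoa4 (1.86 ± 0.26, adjusted p = 2.5e-06). Of 45 other oxidation and ketogenesis enzymes, 9 rose and 4 fell, among the latter Acsm5 (-0.40 ± 0.09). Of 21 receptors and coregulators, limma called 0, with 7 at an unadjusted p under 0.05, beside 3037 of all 11430 genes. Of 33 sterol and fatty acid synthesis genes, 3 rose and 4 fell.

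Igfbp1, a gene that fasting raises and insulin represses, ran from 45.2 over 142 to 768 normalized CPM (mean 185 ± 125.7). With its level 6 of 34 members rose and none fell, beside 4.67% of all genes called and 2.31% rising. Acadl rose by 0.13 ± 0.02 per log2 unit (adjusted p = 0.00288, limma), Cidec by 0.65 ± 0.14 (adjusted p = 0.00638) and Pdk4 by 0.35 ± 0.09 (adjusted p = 0.0182). Ehhadh rose by 0.22 ± 0.06 and Fgf21 by 0.47 ± 0.13 (adjusted p = 0.0308 each), and the sixth was Cd36 with 0.25 ± 0.07 (adjusted p = 0.0338).

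For Acadl, r with Igfbp1 was 0.62 and rho 0.63 (permutation p = 1e-05, the smallest possible, for both), with 0.53 and 0.74 within the sets. For Cidec, r was 0.54, and 0.48 and 0.54 within the sets. Liver 22, where Igfbp1 was highest and 26 members were among their 5 lowest values, weighed on this comparison. Without it 15 members were called, beside 2.41% of all genes, and the 10 newly called included Hadhb, Decr1, Acadm, Hadha and Acadvl, while Cd36 was lost. Without liver 15, 3 members were called, beside 2.62% of all genes, and Cd36, Ehhadh and Fgf21 were lost. Once the fit included the set of library numbers, Cd36 (adjusted p = 0.0648, limma), Ehhadh (adjusted p = 0.0514) and Fgf21 (adjusted p = 0.066) were not called, and the same 3 were lost with the 10 highest genes as a covariate. Igfbp1 had an r of -0.45 with the share of unassigned reads (adjusted p over 28 relations = 0.00488, permutation). With that share as a covariate all 6 calls were lost, Angptl4 alone was called among the members, and 0.481% of all genes were called. Igfbp1 and Cyp4a14 themselves had an r of 0.52, so these comparisons are not independent of each other.

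Dbp, an output gene of the circadian clock, ran from 2.23 over 8.46 to 36.1 normalized CPM. With its level 2 members fell and 1 rose, beside 2.61% of all genes called, of which 1.22% rose and 1.38% fell. Plin2 fell by 0.19 ± 0.05 per log2 unit (adjusted p = 0.0174, limma; r of -0.49, rho of -0.57, and -0.50 and -0.56 within the sets). Pdk4 fell by 0.26 ± 0.07 (adjusted p = 0.0402; r of -0.45), and Fabp1 rose by 0.19 ± 0.05 (adjusted p = 0.0405; r of 0.45). Plin2 was called in all settings tried. It was the only one of these 3 called without the 2 livers farthest from the median of Dbp, and again with the share of unassigned reads as a covariate. Pdk4 was also lost with edgeR and with reads per library as a covariate. Fabp1 was also lost with unscaled CPM, with the 10 highest genes as a covariate, and without the shared animal numbers.

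The labels give library numbers in 2 runs, 28 libraries numbered 1 to 30 and 22 numbered 31 to 59, without saying what the numbers mark. Between these sets limma called 0 of 34 members, beside 13.5% of all genes. At an unadjusted p under 0.05 there were 6 of 34 members, beside 3330 of all 11431 genes. The edgeR quasi-likelihood test called 1 member, Cidec, beside 14.7% of all genes. Cidec was lower in the second set (8.92 ± 10.3 against 4.75 ± 2.48 normalized CPM). Without liver 22, Acaa1a and Creb3l3 were called, both lower in the second set, beside 13.3% of all genes. A slope that differed between the sets was called by limma for 0 genes in each of the fits to Ppara, Cyp4a14, Igfbp1 and Dbp. At an unadjusted p under 0.05, these interactions numbered 617, 1112, 715 and 324 genes, among them 1, 5, 3 and 2 members.

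The labels also give an animal number. With it 4 of 34 members rose and none fell, beside 14.2% of all genes called and 7.49% rising. The share called among members (11.8%) was below that of all genes in both directions and above that of genes rising. Cidec rose by 1.04 ± 0.23 log2 units per 100 numbers (adjusted p = 0.00164, limma), Acadm by 0.15 ± 0.04 (adjusted p = 0.0163), Acadl by 0.14 ± 0.04 (adjusted p = 0.0242) and Ehhadh by 0.29 ± 0.10 (adjusted p = 0.0425). For Cidec, r was 0.54 and rho 0.57 (permutation p = 7e-05 and 3e-05), with 0.49 and 0.59 within the sets. Cyp4a14 rose as well, by 0.48 ± 0.09 (adjusted p = 0.000266).

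The share of reads in the 10 highest genes rose with animal number (r of 0.57, adjusted p over 28 relations = 0.00028, permutation), and with that share as a covariate all 4 calls were lost and 0.542% of all genes were called. Without scaling between libraries, Acadl (adjusted p = 0.0618, limma) and Ehhadh (adjusted p = 0.0665) were not called, and by edgeR Ehhadh was not (adjusted p = 0.0513). The 4 calls were also lost with the share of unassigned reads as a covariate, when 2.37% of all genes were called. All 5 erythroid markers were called with animal number, 4 higher and Alas2 lower, and their part in the result was not tested.

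**Figure D5:**
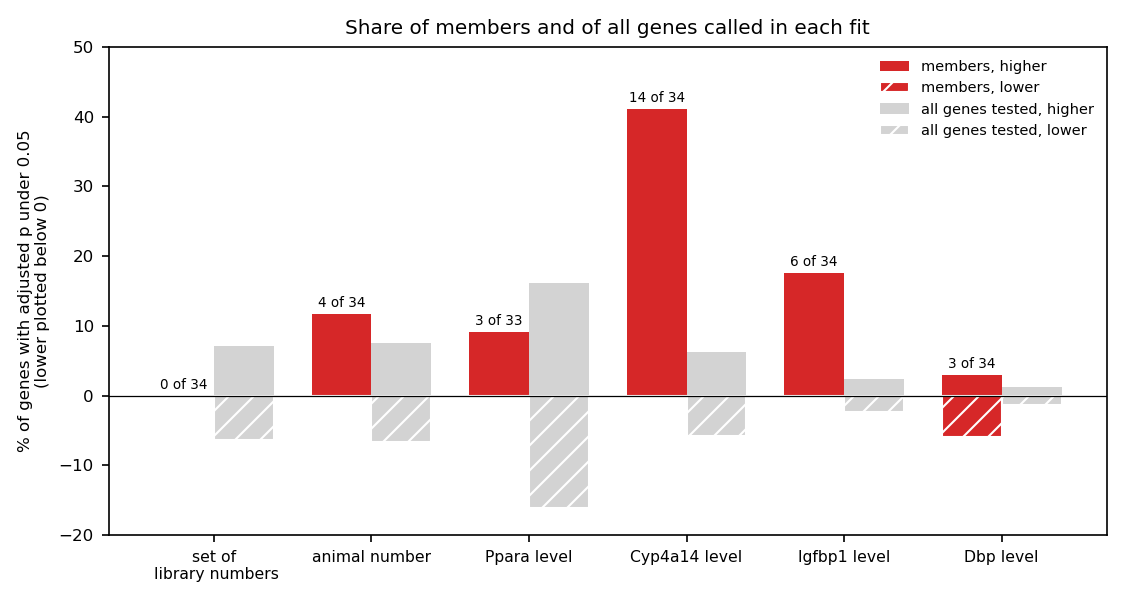
Bars show the percentage of members (red) and of all genes tested (grey) with a limma adjusted p under 0.05 in each of 6 fits, genes with a positive slope above 0 and those with a negative slope below 0, with the number of members called on top. In percentage points, members exceed all genes most in the fit to Cyp4a14 (14 of 34, beside 12% of all genes in both directions). Counted in both directions, they fall below all genes in the fits to Ppara (3 of 33, beside 32.3%), animal number (4 of 34, beside 14.2%) and set (0 of 34, beside 13.5%). For animal number the bar above 0 is higher for members (11.8%) than for all genes (7.49%).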

How the data were processed

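Poly(A) RNA from mouse liver was sequenced in 50 libraries. Per the labels and the study's methods, the authors used HISAT2 for alignment of trimmed reads to GRCm38, HTSeq 0.11.1 for counting and edgeR for scaling. The deposited values are this signal, normalized CPM, and 100% of them were whole multiples of 1 read within 0.01 read. The table of 12185 rows included 5 tally rows of HTSeq (21.2% of all reads, 17.0% to 25.3% per library), which the authors' scaling had included and which were removed here, leaving 12180 genes. Coordinates came from GENCODE M21 and promoters from RefSeq.

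limma 3.58.1 (R 4.3.3) was fitted to log2(value + 0.5) of genes with a mean of at least 1, with Benjamini-Hochberg adjustment over all genes tested and a threshold of 0.05. A fold change on this scale understates the change of low genes. Regressors were the set of library numbers, the animal number and the levels of Ppara, Cyp4a14, Igfbp1 and Dbp, and all fits shared the same 50 livers. Permutation p-values were 2-sided, with 100000 resamples. Alternatives used a pseudocount of 1, no filter, CPM without scaling, edgeR 4.0.16 on the recovered reads, covariates, and livers left out. The fits were tested on simulated data. All 34 members were named with their levels. Full statistics went to at most 5 called members per direction and fit, taken by adjusted p, and up to 3 genes of each other list. The 5 highest and 3 lowest pairs were named. The members and lists were chosen with earlier results of these data known. Leaving out liver 15 or liver 22 and the share of unassigned reads as a covariate were added after seeing the data. Genotypes were not used here. Results that need 1 withheld gene are not reported here.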

Additional observations from a re-analysis of the deposited data

How the results depend on the processing

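Of 356 alternative values of the slopes named above, 295 kept their direction and their side of the threshold, 61 kept the direction without passing it, and 0 reversed. Percentages below are of all genes tested. Between the sets of library numbers, unscaled CPM called 12.1% of genes and 2 members, and edgeR 14.7% and 1. The fit without liver 22 called 13.3% and 2, and that with reads per library as a covariate 7.06% and 0. For animal number, adjusting for the percentage of reads in the 10 highest genes left 0.542% and 0 members, and adjusting for unassigned reads left 2.37% and 0 members. For Ppara, unscaled CPM called 30.3% of genes and 5 members, and adjusting for the 10 highest genes left 23.2% and 1. Dropping both libraries of each shared animal number left 32.8% and 1, and leaving out the 2 farthest livers left 21.4% and 4. For Cyp4a14, 1.41% were called when adjusted for the 10 highest genes, 2.34% and 9 members when adjusted for unassigned reads, and 7.62% without liver 15. For Igfbp1, genes and members called were 1.22% and 3 when adjusted for the 10 highest genes, 2.4% and 17 without the shared animal numbers, 1.84% and 3 with the set as a covariate, 0.954% and 10 without the 2 farthest livers, 0.481% and 1 when adjusted for unassigned reads, 2.62% and 3 without liver 15, and 2.41% and 15 without liver 22. For Dbp, 1.07% and 1 member were called without the 2 farthest livers. The cause of these changes was not tested.

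Unscaled CPM moved the number of higher and lower genes from 807 and 733 to 518 and 865 for the sets, from 856 and 769 to 558 and 1180 for animal number, from 1848 and 1841 to 2360 and 1098 for Ppara, from 713 and 660 to 513 and 890 for Cyp4a14, from 264 and 270 to 158 and 322 for Igfbp1, and from 140 and 158 to 82 and 171 for Dbp. No paired analysis was possible because the libraries form a single group. Among the members, Fgf21, Cidec and Pdk4 had the fewest reads in their lowest livers, with 3, 16 and 38. Poisson error made up 4.41%, 0.73% and 1.57% of their variance between livers.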
